A study of Mus musculus with 2 samples.

Results

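Mir191 and Mir425 are a pair of microRNA genes that lie close together on mouse chromosome 9, beside the coding gene Dalrd3. They were chosen by name: the members are the rows whose Ensembl identifiers carry these names in the GENCODE mouse M21 annotation, and 2 of the 2202 microRNA genes in the files met that rule. Small RNA of under 30 nt was sequenced from the gastrocnemius, the large calf muscle, of female B6CASTF1/J mice at 2 months of age. B6CASTF1/J is the first-generation cross of C57BL/6J with CAST/EiJ. All animals are of this 1 group, with no transgene, treatment or control group in the labels, and each of the 2 libraries is whole muscle from a mouse that the labels number separately. They nevertheless share a donor code, and the spread between the libraries may be technical.

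A microRNA is cut from a hairpin in a longer transcript, and either arm of the hairpin can be loaded into a silencing complex. The loaded strand finds messenger RNAs mainly by pairing through its seed, the stretch near its 5′ end, and lowers their translation and stability. The primary transcript of the Mir191 and Mir425 locus carries both hairpins, and both microRNAs are known from many tissues. miR-191 is one of the RNAs often used as a reference in quantitative PCR of microRNAs, and miR-425 has been studied as a repressor of natriuretic peptide production in the heart. Neither is regarded as specific to muscle.

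The mature sequences are shown because the seeds decide which microRNAs could act on the same messengers. They are those of RefSeq on GRCm38.p6, which matched 2 of the 2 members at the same positions as the GENCODE annotation on mm10, and capitals mark the seed, bases 2 to 8 from the 5′ end. miR-191-5p is at chr9:108568325-108568347, miR-191-3p at chr9:108568367-108568388, miR-425-5p at chr9:108568789-108568811 and miR-425-3p at chr9:108568830-108568850, all on the plus strand. miR-489-3p, of the gene Mir489 on chromosome 6, is added because its seed is that of miR-425-5p.
miR-191-5p: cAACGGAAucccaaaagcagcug
miR-191-3p: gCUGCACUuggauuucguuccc
miR-425-5p: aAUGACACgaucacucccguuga
miR-425-3p: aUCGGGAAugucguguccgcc
miR-489-3p: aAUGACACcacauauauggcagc

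The arms of the cluster carry 4 different seeds, so neither microRNA is a seed relative of the other. Among the 1738 mature mouse sequences in the table, 0 others had the seed AACGGAA of miR-191-5p, CUGCACU of miR-191-3p or UCGGGAA of miR-425-3p. The seed AUGACAC of miR-425-5p recurred in 1 other sequence, miR-489-3p, known from quiescent muscle stem cells. Mir489 had 0 counts in replicate 1 and 2 counts in replicate 2. The limit that a count of 0 allows is taken as 3 counts (1.54 and 1.31 CPM, counts scaled to library totals as below). Mir489 was not detectable beyond that limit in replicate 1. In replicate 2 its 2 counts are 0.873 CPM, and the limit for a count of 0 does not bound its level there. The files count reads per hairpin gene, so how far each arm contributed is not analysed here.

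In the mm10 assembly, Mir191 (ENSMUSG00000105497.1) lies on the plus strand of chromosome 9 from 108568319 to 108568392. Mir425 (ENSMUSG00000065579.1) lies on the same strand from 108568777 to 108568861, with 384 bp between the hairpins. GENCODE M21 places both inside the long noncoding gene 4833445I07Rik (108567533 to 108569174, plus strand). One of its 2 transcripts is unspliced and contains both hairpins in its exon. In the spliced transcript Mir191 falls in the intron and Mir425 lies past the transcript's end. Dalrd3, which encodes a protein that takes part in tRNA methylation, begins in GENCODE at 108569886, so both hairpins are upstream of it and Mir425 ends 1024 bp before it. RefSeq on GRCm38.p6 starts Dalrd3 at 108567484, so there both hairpins are inside the gene. On the minus strand, a further microRNA gene of GENCODE, Gm24083 (108568295 to 108568414), covers the whole of Mir191. Mir425 has 0 annotated genes on its opposite strand.

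**Figure D1:**
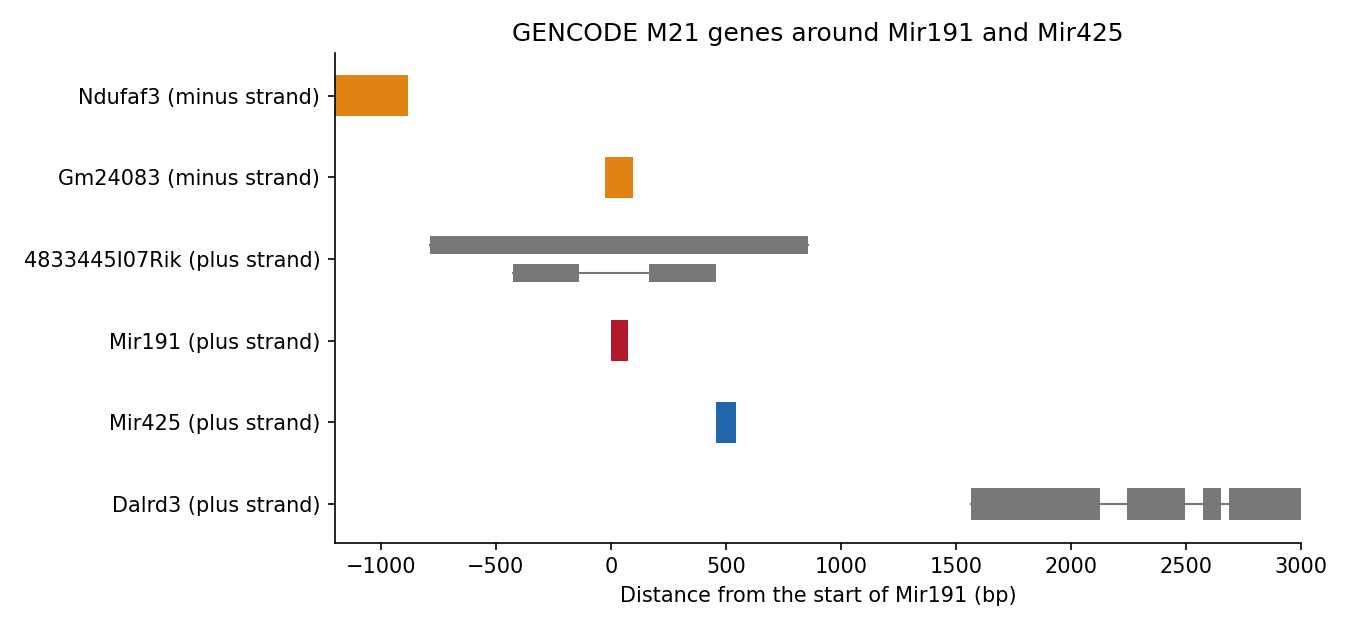
Genes of GENCODE M21 around the cluster, plotted by distance in bp from the start of Mir191. Grey marks plus-strand genes (boxes are exons, with the 2 transcripts of 4833445I07Rik drawn separately and the exons of all Dalrd3 transcripts merged), orange marks minus-strand genes, red Mir191 and blue Mir425. Both hairpins lie within 4833445I07Rik and before Dalrd3, and Gm24083 spans Mir191 from the other strand.

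Own-strand reads of all microRNA genes summed to 1950204 in replicate 1 and 2291821 in replicate 2. Levels are given as CPM, counts scaled to these totals, where 1 count is worth 0.513 or 0.436 CPM. At least 10 counts in each library, called detected here, were reached by 278 genes. Another 70.1% and 72.3% of the reads listed were multimapping and enter no gene. The tissue label was checked on marker microRNAs. Of 10 striated muscle genes, 9 were detected, with Mir208a below the minimum, and their summed share was 2.79% and 4.66%. Mir206 carried most of it, with 26708 and 41933 CPM. The copies of Mir1a and Mir133a had means from 5.40 CPM, for Mir133a-2, to 212 CPM, for Mir1a-2. Mir1a and Mir133a have 2 gene copies each, and reads that align to both copies are left out, so this share cannot be set against those of single-copy markers. Markers of other cells were also present and differed between the libraries, at 20.3% and 9.73% for smooth muscle (2 of 2 genes detected) and 12.1% and 15.7% for endothelium (1 of 1). The shares were 0.149% and 0.151% for fibroblasts (3 of 4), 0.315% and 0.246% for leukocytes (4 of 4), and 0.0787% and 0.0460% for red cells (2 of 2). Of 5 leukocyte names listed, Mir146a matched no gene and is not in that share. Mir338 of Schwann cells had 0.307% and 0.0855%, and Mir122 of liver 0.0110% and 0.00109%. Both were called lower in replicate 2 in the exact binomial test described below. Beside 11.9% of all detected genes, that test also called 2 of 9 detected striated muscle genes, higher in replicate 2. It called 2 of 2 of smooth muscle, 1 of 3 of fibroblasts and 2 of 4 of leukocytes, all lower. Endothelium and red cells had 0 called. The part of these markers in the values below was not tested.

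By reads that could be counted for a single gene, Mir191 was among the more abundant microRNAs of the muscle. It had 10926 counts in replicate 1 and 13640 in replicate 2. As levels these were 5602 CPM (exact Clopper-Pearson 95% interval 5498 to 5708) and 5952 CPM (5852 to 6052). The libraries lay close together, with replicate 2 the higher and the intervals apart. The mean was 5777 ± 247 CPM (SD, n = 2), or 0.560% and 0.595% of all counts, 46.9 times the median of the detected genes (123 CPM). By mean level Mir191 was the 24th of all genes, and it was 27th in replicate 1 and 24th in replicate 2. Multimapping reads enter no gene, so microRNAs with several gene copies can be counted too low. Ranks and the median here and below therefore hold for counted reads only. Such intervals hold for counting error alone, as PCR copies of a molecule are counted again. In whole muscle, fewer cells of a type and less RNA per cell cannot be told apart.

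Mir425 was measured at a lower level in both libraries. It had 1304 counts in replicate 1 and 1605 in replicate 2, which are 669 CPM (633 to 706) and 700.3 CPM (666 to 735). Replicate 2 was again the higher, and here the intervals overlapped. The mean was 684 ± 22.4 CPM (SD, n = 2), 5.55 times the median of the detected genes. Mir425 was the 67th gene by mean level, 69th in replicate 1 and 67th in replicate 2. The SD was 3.27% of the mean for Mir425 and 4.27% for Mir191. The pair's summed share was 0.627% in replicate 1 (95% interval 0.616 to 0.638). It was 0.665% in replicate 2 (0.655 to 0.676), and the mean over both was 0.646% ± 0.0269 (SD, n = 2).

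In the order of levels, the range of Mir191 over the libraries overlapped that of 5 other detected genes, while 22 lay above it in both libraries and 250 below. Next above it came Mir139, of the Pde2a gene, with 5316 and 6867 CPM, so it was below Mir191 in replicate 1 and above it in replicate 2. Mir322, a microRNA of the myogenic Mir322 and Mir503 cluster, stood above Mir191 in both, with 7025 and 7798 CPM. Next below came Mir10a, of the Hoxb cluster, with 5816 and 5349 CPM, and Mir411, of the imprinted Dlk1-Dio3 region, with 5861 and 5090 CPM. Both were above Mir191 in replicate 1 and below it in replicate 2. The order of Mir139, Mir191, Mir10a and Mir411 thus did not hold beyond the spread between libraries.

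The range of Mir425 overlapped that of 10 other genes, with 62 above it in both libraries and 205 below. Mir486, a muscle-enriched microRNA of the Ank1 gene, was 1 of the 2 genes next above it, with 549 and 1006 CPM. Mir532, the other, had 838 and 684 CPM, and Mir872 below it had 682 and 631 CPM. All 3 crossed Mir425 between the libraries. Mir1839 was just under it without overlap, at 666 and 658 CPM.

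Whether Mir191 has a value in the files depends on the strand rule. Gm24083, on the other strand, has 10926 and 13640 counts in the opposite-strand column, equal to the own-strand counts of Mir191, and 0 of its own in both libraries. In the column that ignores strand, Mir191 and Gm24083 are both listed at 0 in both libraries, since reads that fit more than 1 gene are set aside there as ambiguous. The own-strand counts of Mir191 equal 2.35% and 1.99% of all reads that are ambiguous without strand. Mir425 had the same 1304 and 1605 counts with and without regard to strand, and 0 on the opposite strand. Of the 278 detected genes, 23 were at 0 in both libraries in the column without strand. Mir378a and Mir30e were the only ones of these with a higher mean level than Mir191.

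**Figure D2:**
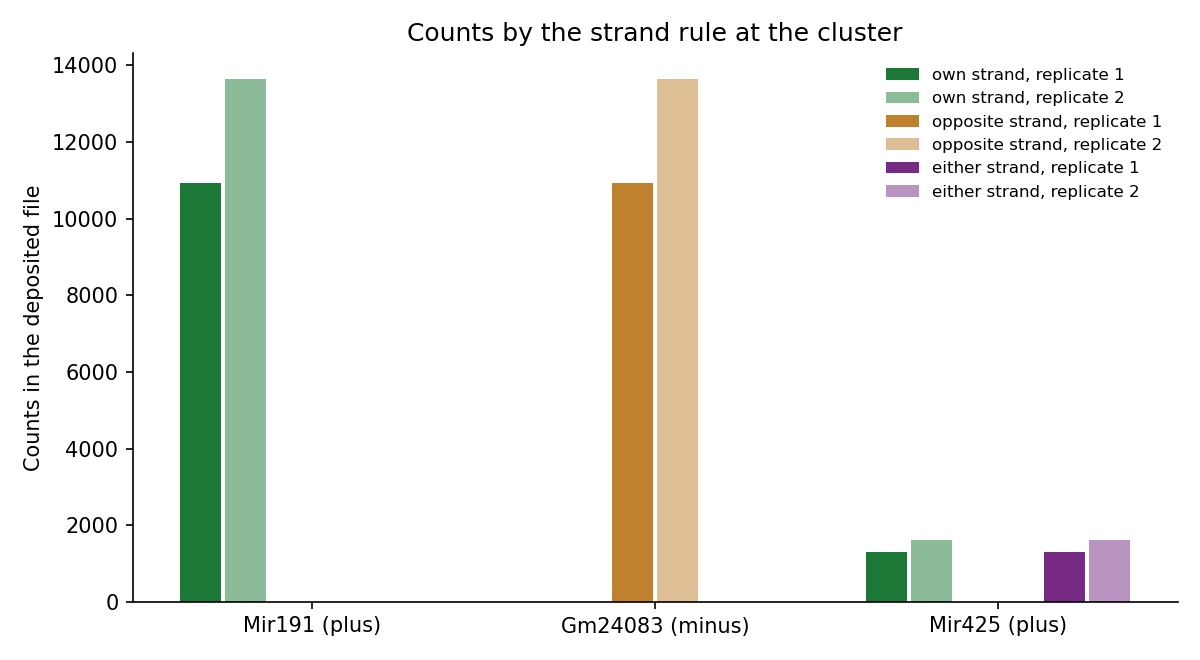
Deposited counts at the cluster by strand rule, for Mir191, the minus-strand gene Gm24083 and Mir425, with dark bars for replicate 1 and pale bars for replicate 2. The opposite-strand bars of Gm24083 have the height of the own-strand bars of Mir191 (10926 and 13640), and Mir191 has none in the column for either strand.

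The hairpins shared no exact stretch of 20 nt with annotated transcripts elsewhere. Every stretch of 20 nt of both hairpins was looked for in the 141767 transcripts of GENCODE M21. Mir191 shared such stretches with its host 4833445I07Rik and, in reverse, with Gm24083, and Mir425 with 4833445I07Rik alone. These genes occupy the same positions as the hairpins and are not copies elsewhere. The genome outside annotated transcripts was not searched, and inexact or shorter matches were not looked for.

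The members' levels could be compared between the libraries against counting error only, because there is no second group. On counts scaled by TMM (a scaling to the bulk of genes), Mir191 was 1.09-fold higher in replicate 2 (95% interval 1.06 to 1.12), a log2 ratio of 0.12 (SE 0.0185, from counting). Mir425 was 1.07-fold higher (0.997 to 1.15), a log2 ratio of 0.10 (SE 0.0538). With totals that leave out the 10 most abundant genes, which moves the median of all detected genes from -0.030 to -0.15, both differences changed sign, to -0.00057 for Mir191 and -0.021 for Mir425, so no direction is read from them. Neither gene was called in the two-sided exact binomial test at a Benjamini-Hochberg adjusted p under 0.05 and at least 2-fold, where 11.9% of the detected genes were called. Mir191 passed without the fold minimum (adjusted exact p = 1.82e-10), as did 55.4% of detected genes, whereas Mir425 did not (adjusted exact p = 0.101). Both of these turn with the scaling, since with totals that leave out the 10 most abundant genes Mir191 did not pass (adjusted exact p = 0.994), and with DESeq2 size factors Mir425 did (adjusted exact p = 0.029). Against the spread over all detected genes, which edgeR terms a biological coefficient of variation (0.352), the edgeR exact test gave an adjusted p of 1 for both. That spread was estimated from these same 2 libraries and may be technical. It holds the very differences under test, so this test cannot decide whether a small ratio is real.

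Set beside all detected genes, whose log2 ratios had a median size of 0.36 regardless of sign, the pair differed little. Of the 278, 54 genes had a smaller ratio in size than Mir191 and 39 a smaller one than Mir425, on TMM-scaled counts. Many detected genes have fewer counts and larger counting errors than the pair, and they were not matched to it by level. The genes with the most similar ratio of CPM over the 2 libraries, among the 141 others of at least 100 CPM, were Mir15b, Mir101b and Mir26a-2 for Mir191, within 0.0049 of it on the log2 scale. For Mir425 they were Mir433, Mir676 and Mir28a, within 0.0081. With only 2 libraries, likeness is 1 number per gene and many genes come close by it.

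**Figure D3:**
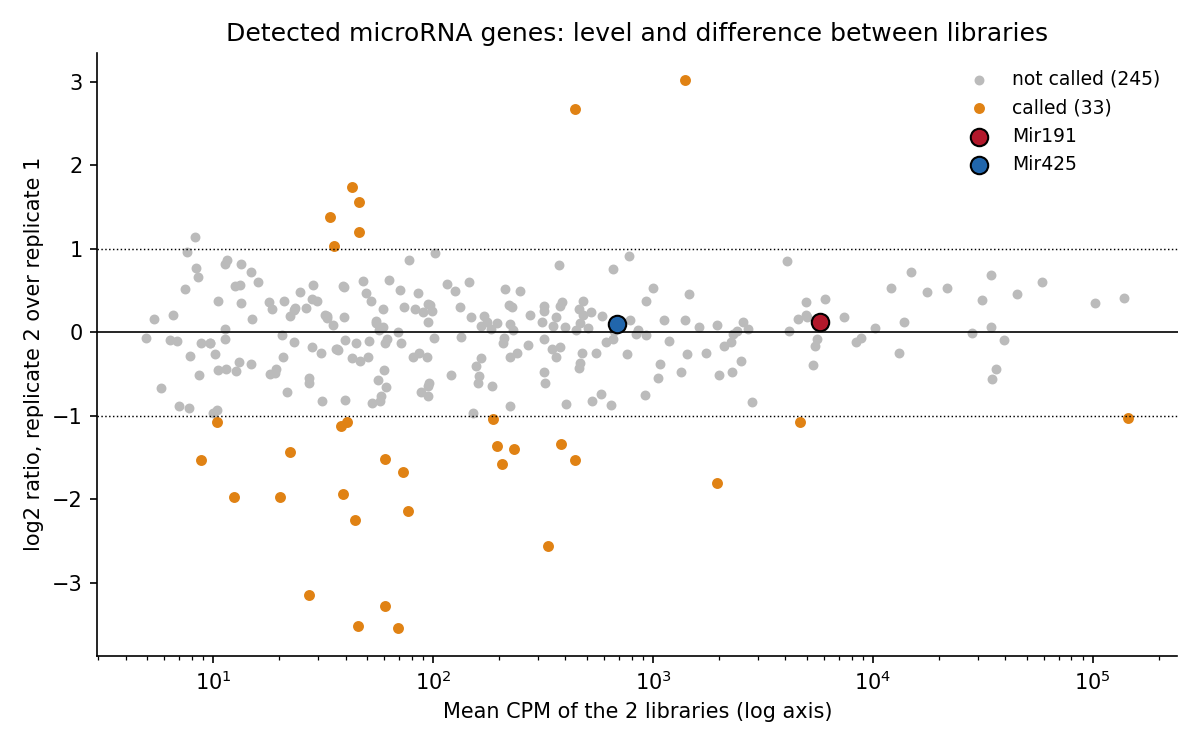
Level (mean CPM, log axis) against the log2 ratio of replicate 2 over replicate 1 on TMM-scaled counts for the 278 detected genes, with called genes in orange and dotted lines at 2-fold. Mir191 (red) and Mir425 (blue) lie near 0, at 0.12 and 0.10.

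The balance within the pair needs no scaling between libraries. Mir191 had 8.38 times the counts of Mir425 in replicate 1 and 8.50 times in replicate 2, a mean of 8.44 ± 0.0846 (SD, n = 2). Counted per base of hairpin, 74 for Mir191 and 85 for Mir425, the ratio was 9.62 and 9.76. RNA of under 30 nt does not span a hairpin, so counts need not scale with hairpin length, and the ratio of counts is the one to read. Mir425 made up 10.7% of the pair's counts in replicate 1 (10.1 to 11.2). In replicate 2 it made up 10.5% (10.05 to 11.03), and the intervals overlap over most of their width. The odds ratio of Mir425 to Mir191 in replicate 2 over replicate 1 was 0.986 (95% interval 0.912 to 1.07, two-sided Fisher's exact test, p = 0.723). A change in balance within these bounds was not detectable at this depth. How efficiently each sequence is captured in library preparation was not measured, so the ratio is one of reads.

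Other clusters show how far such a balance moved in these libraries. The 2 most abundant detected genes of each same-strand cluster, with at most 10000 bp between neighbours, gave 40 pairs. Between the libraries, the log2 ratio of Mir425 to Mir191 moved by -0.021 (counting SE 0.0569), the second smallest change in size. The median change in size was 0.18 and the largest 1.49 (SE 0.581), for Mir20b and Mir92-2 of the X-linked cluster. These had low mean levels, of 12.4 and 19.1 CPM. Mir181d with Mir181c, of the miR-181 family, moved less (-0.0064, SE 0.107), and Mir183 with Mir182, of the sensory cluster, came next (0.031, SE 0.482). Both had larger counting errors, and 24 of the 40 pairs moved by less than 2 SE, so the order among the smallest changes is not resolved. In level, Mir425 was -3.08 on the log2 scale relative to Mir191, and the second gene was further below the first in 14 of the 40 clusters (median -2.26). Several of those second genes belong to microRNAs with further gene copies. Reads that align to more than a single copy are in no gene, and how far this widens such gaps was not tested.

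**Figure D4:**
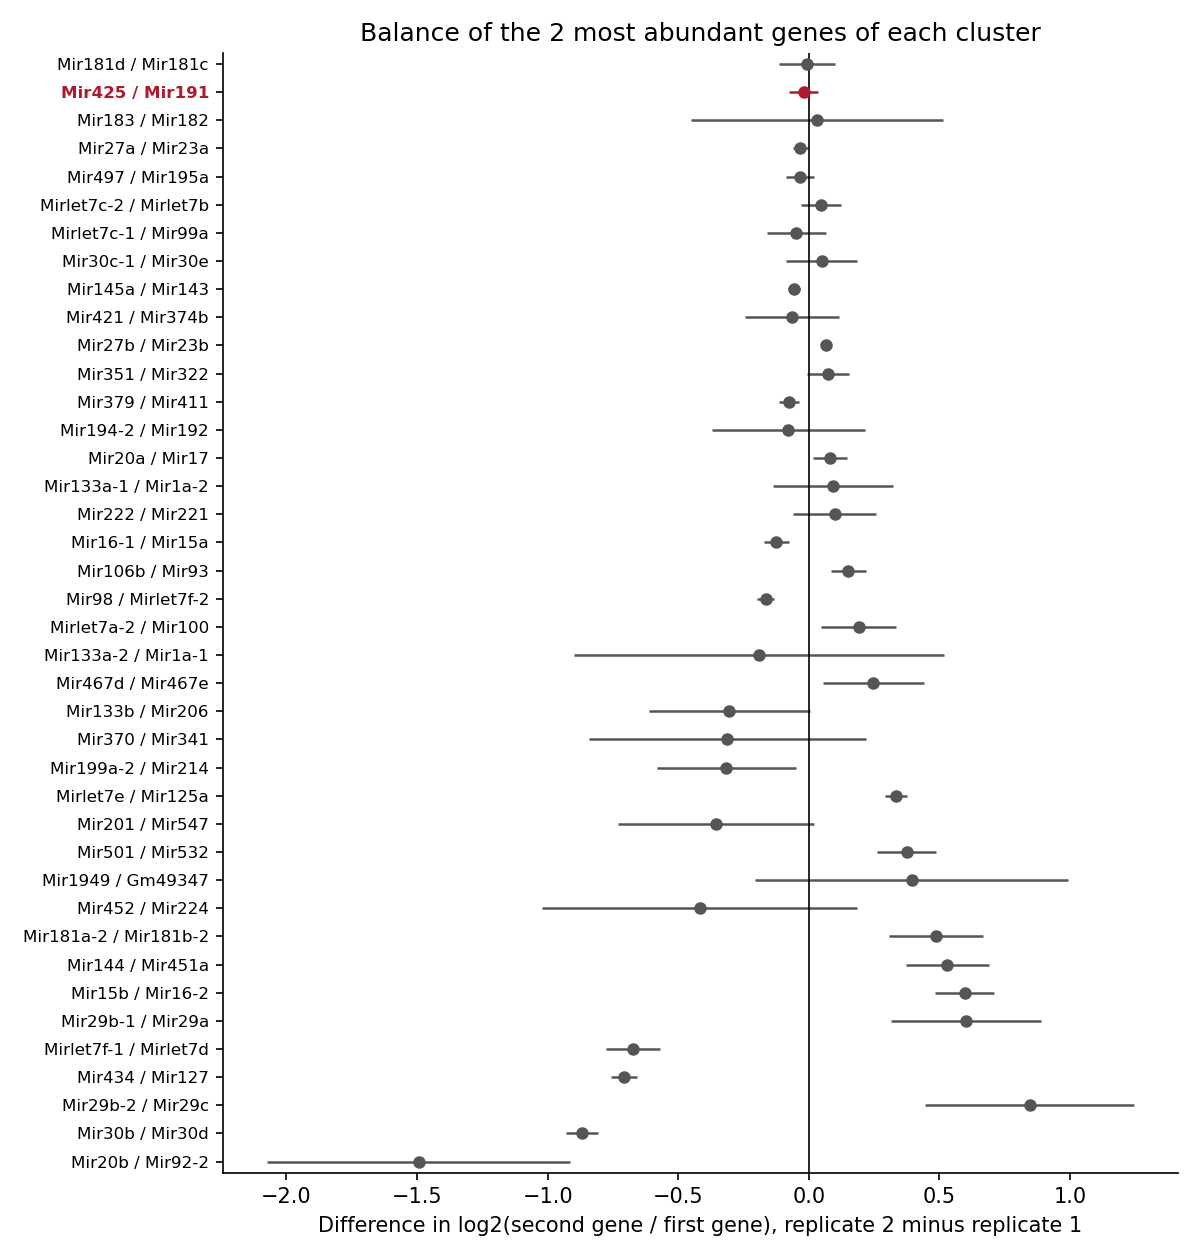
Change in the log2 ratio of the second to the most abundant detected gene of each of 40 clusters, replicate 2 minus replicate 1, ordered by size, with bars of 1 SE from counting. The Mir425 to Mir191 pair (red) lies at -0.021, and changes reach -1.49 for Mir20b and Mir92-2.

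The other microRNAs used as references or described as broadly expressed formed a list of 17 genes, of which 16 were detected. In this muscle Mir191 was above every one of them by mean level, and its range over the libraries overlapped none of theirs. Mir151, in the Ptk2 gene, came nearest with 4417 and 5552 CPM. Mir361, in the Chm gene, followed with 1612 and 1641 CPM, and Mir93, in the Mcm7 gene, with 1573 and 1281 CPM. Mir425 lay below Mir320, with 954 and 909 CPM, and above Mir423, with 275 and 471 CPM. The lowest were Mir103-2 with 26 and 22 counts and Mir103-1 with 1 and 2 counts, which is below the detection minimum. Mir103, Mir16, Mir24 and Mir26a each have 2 gene copies, and reads that align to both are in no gene, so their counts leave out any such reads.

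Between the libraries, 0 of the 16 detected reference genes were called in the exact binomial test with the 2-fold minimum, and 9 had an adjusted p under 0.05 without it, against the 11.9% and 55.4% of all detected genes. Their median log2 ratio was -0.0029, with 8 higher and 8 lower in replicate 2, beside -0.030 over all detected genes. The widest differences were those of Mir423, at 0.81, and Mir484, at -0.61. On TMM-scaled counts, Mir186, Mir320 and Mir361 differed less than Mir191 and Mir425, at 0.029, -0.035 and 0.061. This order depends on the scaling. By CPM, the SD was 3.41% of the mean for Mir320 and 3.27% for Mir425. With totals that leave out the 10 most abundant genes, Mir191 and Mir425 were at -0.00057 and -0.021, and the list median moved to -0.13. The median size of the ratio was 0.29 in the list.

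**Figure D5:**
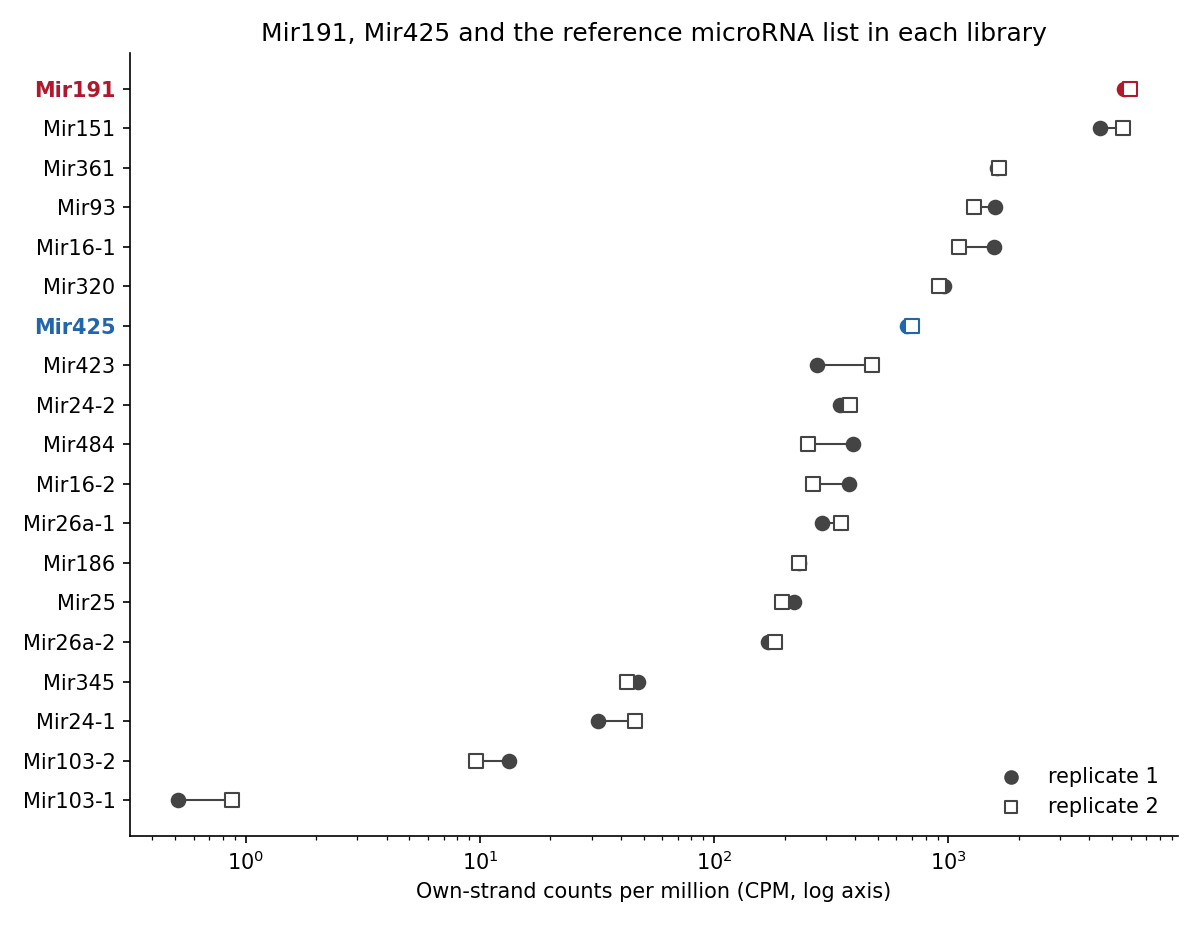
Levels (CPM, log axis) of Mir191, Mir425 and the 17 genes of the reference list in replicate 1 (filled circles) and replicate 2 (open squares), joined by a line and ordered by mean level. The libraries nearly coincide for Mir191 (5602 and 5952) and Mir425 (669 and 700.3) and lie further apart for Mir423 (275 and 471).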

How the data were processed

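Own-strand microRNA gene counts, as deposited by the authors, were analysed. Their raw counts use mm10 and GENCODE mouse M21, per the file notes deposited beside them. For the aligner and the counter, a name is not given in the sources used here. Rows that name no gene stayed out of totals: reads listed were 9410562 and 14377558, of which 20.7% and 15.9% were counted on a gene's own strand.

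The exact binomial test used TMM-scaled library sizes (edgeR 4.0.16) and Benjamini-Hochberg adjustment over the 278 genes with 10 or more counts in each library. Log2 ratios add 0.5 counts. With 1 group, no quasi-likelihood test of conditions could be made. Alternatives changed the scaling, strand, minimum counts, minimum fold, dispersion, denominator, cluster distance and libraries.

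The members, lists and rules were chosen with earlier results of these data known. Genes named are the members, the reference list, neighbours in level, genes of similar ratio, the clusters next in order, seed relatives and host genes. A marker name, Mir146a, was not found. Tests ran in scipy 1.17.1 (Python 3.11.15), and DESeq2 1.42.0 in R 4.3.3 gave size factors for an alternative.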

Additional observations from a re-analysis of the deposited data

Results flagged for a closer look

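Gm24083, the minus-strand gene over Mir191, had 10926 counts in replicate 1 and 13640 in replicate 2 in the opposite-strand column, which the comparisons do not use. They are above the limit of 3 counts, but they equal the own-strand counts of Mir191 and are the same plus-strand reads seen from the other gene, not a separate signal. Gm24083 had 0 own-strand counts in both libraries.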

How the results depend on the processing

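Counted without strand, Mir191 fell to a mean of 0 CPM, because its reads are ambiguous with Gm24083, and gave no log2 ratio and no ratio to Mir425, while Mir425 rose to 938 CPM over the smaller total. With all reads listed as the denominator, the means were 1055 and 125 CPM. Leaving out a library gave 5602 to 5952 CPM for Mir191, 669 to 700.3 CPM for Mir425 and 11.8 to 11.9 Mir425 counts per 100 of Mir191. The log2 ratios lay between -0.00057 and 0.15 for Mir191 over 7 alternatives and between -0.021 and 0.13 for Mir425 over 8. The lowest of each came from totals without the 10 most abundant genes, an alternative chosen after seeing the data, and changed sign. Without the fold minimum Mir191 passed, at 0.12, and 154 genes in all, but by that criterion Mir191 was lost with totals without the 10 most abundant genes (adjusted exact p = 0.994) and Mir425 was gained with DESeq2 size factors (adjusted exact p = 0.029). Against 33 of 278 genes called, a minimum of 50 counts called 18 of 207, no minimum 48 of 583 and the edgeR exact test with the estimated dispersion 7 of 278. With 50000 bp between cluster neighbours the pair's change was still the second smallest, of 42. Depth limits the counting error of Mir425 (1304 and 1605 counts), not the spread between samples. No paired analysis was possible because there is only 1 group.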

Other observations

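No other microRNA gene nearby gave counts. The 3 nearest on chromosome 9 beyond Gm24083 are Gm26298, Gm23156 and Mir711, which begin 84747, 275617 and 401061 bp past the end of Mir425. Each had 0 counts in both libraries, which allows up to 1.54 and 1.31 CPM.

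The predicted folds of the hairpins differed in detail. RNAfold 2.7.2 gave -35.0 kcal/mol for Mir191 and -31.7 kcal/mol for Mir425, with 56 paired bases in each. Of the mature arms, 19 of 23 bases of miR-191-5p and 19 of 22 of miR-191-3p were paired, against 14 of 23 of miR-425-5p and 17 of 21 of miR-425-3p. The GC content was 54.1% in both hairpins.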
